A study of Homo sapiens with 12 samples.

Results

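Integrins and laminins were followed through the differentiation of human embryonic stem cells toward blood. The set held 37 genes, 26 for integrin chains (18 alpha and 8 beta) and 11 for laminin chains (5 alpha, 4 beta and 2 gamma), chosen by gene symbol among the 56593 distinct symbols of the expression table. Members were chosen by family, though with earlier results of these data known, and every member was listed once. RNA-seq had been done on 12 libraries, 3 from each of 4 populations. H1, an established human embryonic stem cell line, was the undifferentiated start. The other populations were derived from H1: APLNR+ mesoderm cells at day 2 of activin A and BMP4, then CD31+CD34+ hemogenic endothelial progenitors at day 5 and CD43+ hematopoietic progenitors at day 8, after a change to VEGF and bFGF at day 2. Every library thus comes from a single line, cells were grown on Matrigel, a laminin-rich matrix, per the study's methods, and the labels do not say whether the libraries of a population came from separate cultures, so p-values measure only the spread among these libraries, which may be technical.

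Integrins are the main receptors by which cells hold to the extracellular matrix and to each other. Each is a pair of an alpha and a beta chain, and the alpha chain largely sets what is bound: laminins, collagens, proteins with the RGD tripeptide such as fibronectin and vitronectin, or surface proteins of other cells. ITGB1 encodes the beta chain shared by most matrix integrins, the beta2 and beta7 chains belong to leukocytes, and the pair of ITGA2B and ITGB3 forms the fibrinogen receptor of platelets, whose alpha chain (CD41) is also used as an early surface marker of embryonic blood progenitors. Laminins are trimers of an alpha, a beta and a gamma chain and build the sheet of the basement membrane on which epithelia and endothelia sit.

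Values are FPKM, fragments per kilobase of transcript scaled to the mapped fragments of a library. Summed FPKM nevertheless ran from 567793 to 1564449 over the libraries, and the main fit did not rescale for it. The sums were 1251641 to 1462003 in H1, 646818 to 1564449 in APLNR+, 567793 to 1376275 in CD31+CD34+ and 600427 to 769716 in CD43+ libraries. Absolute depth is unknown from FPKM, and the spacing of the lowest values put the relative depth of the libraries between 0.555 and 1.27 times that of CD43+ replicate 3, with replicate 1 the shallowest in each population. An FPKM of 0 can be a failed estimate in this table, since EEF1A1, a gene of every cell, was listed at 0 in 6 libraries and at 1839 or more in the others. Of the 37 genes, 25 reached 1 FPKM in at least 3 libraries and were tested (18 integrin and 7 laminin genes). The labels were checked against marker genes. All 5 stem cell markers were called lowered at the first step, all 5 mesoderm markers raised at the first, all 5 endothelial markers raised at the second and 4 of 5 blood progenitor markers raised at the third. The fifth, PTPRC, which encodes the pan-leukocyte antigen CD45, stayed at or under 0.521 FPKM in all libraries.

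The make-up of integrin transcripts differed at each stage. In H1 the laminin-binding alpha chains made up 52.9 ± 0.538% of the summed FPKM of the 18 integrin alpha genes (SD, n = 3). In APLNR+ and CD31+CD34+ cells the RGD-binding chains held the largest share, 64.4 ± 0.698% and 60.8 ± 1.28%, with alpha4 and alpha9 next in CD31+CD34+ cells at 19.1 ± 1.44%. In CD43+ cells the platelet chain ITGA2B alone held 82.7 ± 0.918%, after 2.72 ± 0.538% in CD31+CD34+ cells. The platelet chains ITGA2B and ITGB3 were counted as their own class, apart from the RGD-binding chains, here and in what follows. Among beta chains, ITGB1 and the RGD-binding chains, mostly ITGB5, made up 55.2% and 42.2% of beta FPKM in CD31+CD34+ cells, and ITGB3 held 65.9 ± 0.997% in CD43+ cells. Leukocyte alpha chains held 16.1 ± 1.23% in H1 and 2.16 ± 0.0741% in CD43+ cells, and without ITGAE their mean share was between 0.141% and 0.3199% in all 4 populations. Since shares within a library sum to the whole, a large rise of ITGA2B lowers every other alpha share, and the FPKM themselves are given for each class. Here as in the rest, a lower level in a sorted bulk population can come from fewer cells with the transcript or from less of it per cell, and these cannot be told apart.

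**Figure D1:**
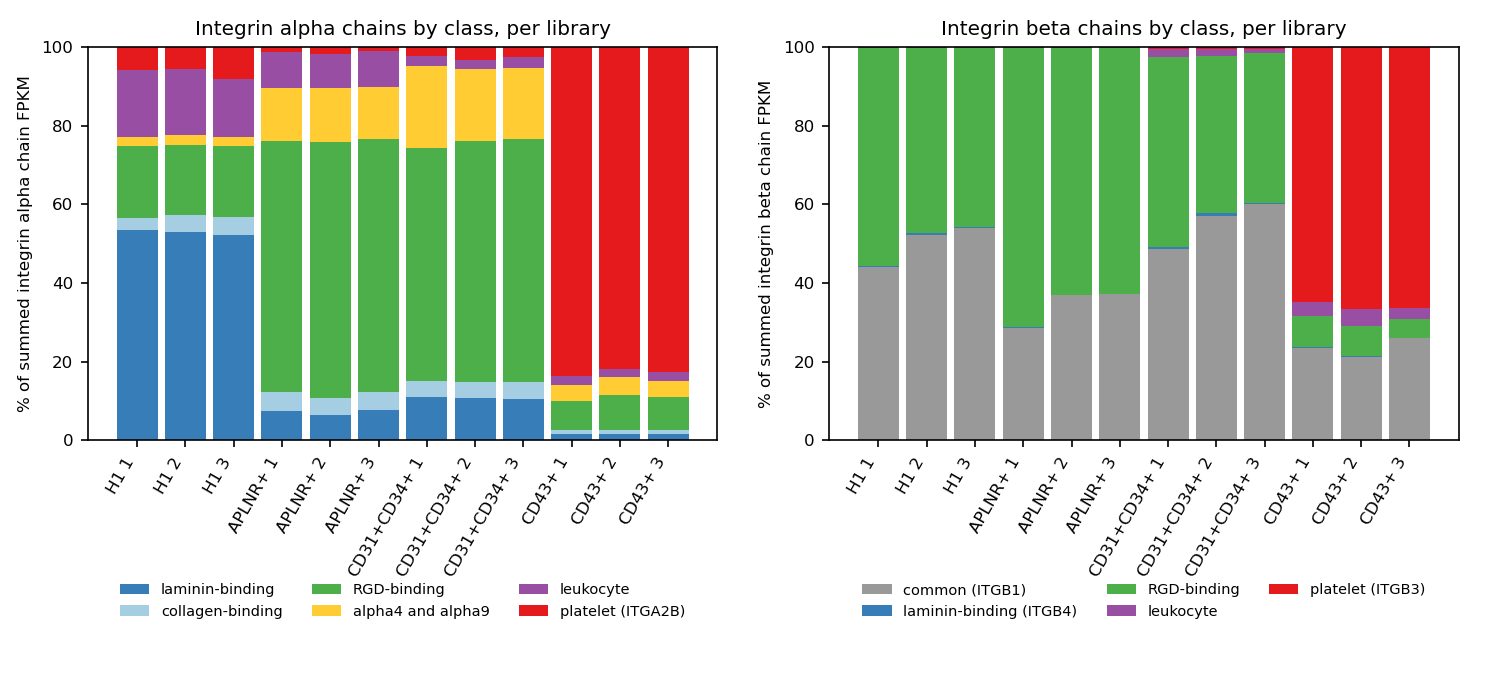
Share of the summed FPKM of integrin alpha genes (left) and beta genes (right) held by each class, in percent, with a bar for each of the 12 libraries. In the left panel the laminin-binding class leads in the 3 H1 bars at 52.3 to 53.4%, the RGD-binding class in the 6 of APLNR+ and CD31+CD34+ cells, and the platelet class in the 3 of CD43+ cells at 81.8 to 83.7%. In the right panel the common chain ITGB1 leads in the 3 CD31+CD34+ bars, though by 48.7 against 48.4% in replicate 1, and in H1 replicates 2 and 3.

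Single genes were then compared between successive populations. A call required a limma adjusted p, taken over all tested genes, of under 0.05 together with a 2-fold or larger difference in log2(FPKM + 1), a scale on which changes of low genes come out too small. From H1 to APLNR+ cells, 7 of the 37 genes were raised (ITGA5, ITGAV, ITGA9, ITGB5, ITGB8, LAMB1 and LAMC3) and 3 lowered (ITGA6, ITGA7 and ITGA2B), where 15.9% of all 14840 tested genes were called (8.3% raised and 7.62% lowered). At the next step, from APLNR+ to CD31+CD34+ cells, 7 were raised (ITGA2B, ITGA3, ITGA5, ITGA8, ITGA9, ITGA10 and ITGB2) and 3 lowered (ITGA1, ITGB5 and ITGB8), against 29.6% of all genes (12.5% raised and 17.1% lowered). On the way to CD43+ cells 4 were raised (ITGA2B, ITGB3, ITGA4 and ITGA1) and 10 lowered (ITGA3, ITGA5, ITGA6, ITGA7, ITGA9, ITGA10, ITGAV, ITGB1, ITGB5 and LAMA1), against 14.4% of all genes (5.58% raised and 8.79% lowered). Between the ends, CD43+ against H1, 11 were raised and 5 lowered, where 37.1% of all genes were called (14.6% raised and 22.5% lowered). The median log2 change of the 25 tested members was 0.57, 0.37 and -0.50 at the 3 steps, beside -0.12, -0.01 and -0.0049 for all tested genes. Genes called at all 3 steps numbered 4: ITGA5, ITGA9, ITGB5 and ITGA2B. Another 5 tested members were called in no comparison (ITGA2, ITGAE, LAMA2, LAMA5 and LAMC1), although LAMA2 was called in all 4 when 0.1 FPKM was added in place of 1. The libraries of the compared populations did not overlap for 22, 20, 21 and 23 of the 25 tested members in the 4 comparisons, and for 66%, 75.7%, 58% and 76.3% of all genes. With 3 libraries a side, the smallest two-sided p of an exact permutation test is 0.1, so single genes rest on the limma model.

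**Figure D2:**
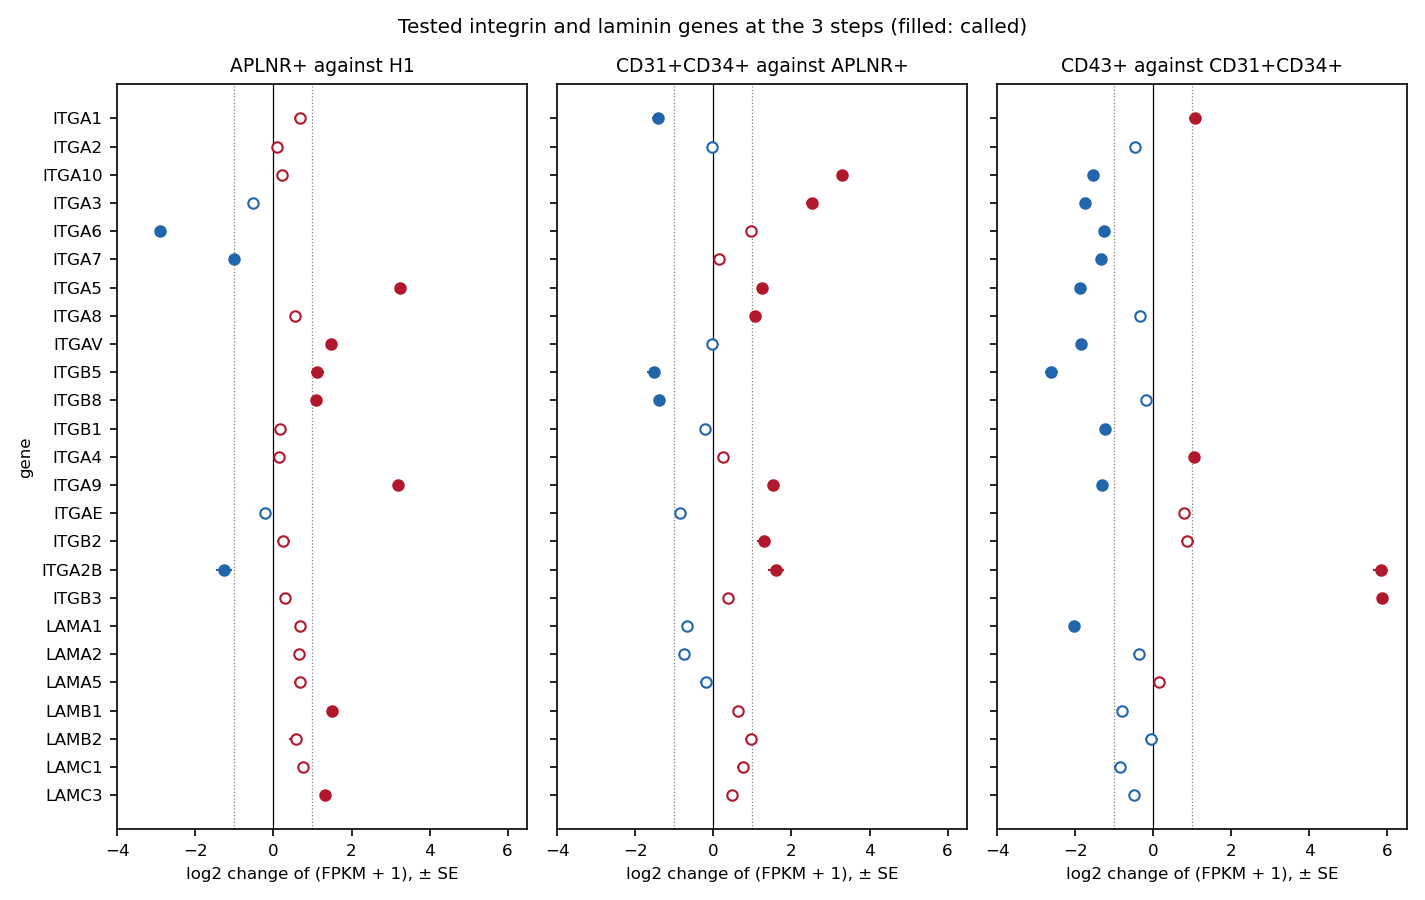
Log2 change of FPKM + 1 with its SE at each of the 3 steps for the 25 tested genes, red for higher and blue for lower in the later population, filled where called. Dotted lines mark the 2-fold limits. At the step to CD43+ cells ITGA2B (5.82) and ITGB3 (5.85) lie far to the right, and 10 filled points lie to the left of the lower limit.

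Laminin-binding chains were the main class of H1 among alpha genes only. Of the H1 beta FPKM, the laminin-binding chain ITGB4 held 0.362% and the RGD-binding chains 49.3%. ITGA6, which encodes the alpha6 chain by which stem cells hold to laminin, had 40.3, 44.03 and 43.9 FPKM in the H1 libraries, 4.53, 4.41 and 5.46 in those of APLNR+, 9.51, 11.1 and 10.5 in those of CD31+CD34+ and 3.898, 3.35 and 3.83 in those of CD43+ cells. The H1 libraries lay far above all others. ITGA6 fell at the first step (log2 change -2.92 ± 0.10 SE, adjusted p 2.48e-10), from a mean of 42.7 ± 2.11 to 4.802 ± 0.576 FPKM (SD, n = 3), its partial return in CD31+CD34+ cells missed the 2-fold limit (0.97, adjusted p 2.72e-06, and it passed at 1.05 without APLNR+ replicate 3 and at 1.03 without CD31+CD34+ replicate 1), and it fell again to CD43+ cells (-1.28 ± 0.10, 5.05e-07). ITGA7, a laminin receptor best known from muscle, was found at 10.3, 10.1 and 10.5 FPKM in the H1 libraries, 5.01, 4.71 and 4.25 in those of APLNR+, 5.31, 5.54 and 4.82 in those of CD31+CD34+ and 1.68, 1.33 and 1.35 in those of CD43+ cells. Its libraries overlapped between APLNR+ and CD31+CD34+ cells and at no other step. Its fall at the first step stood at the limit (log2 change -1.002 ± 0.09, adjusted p 2.44e-06), and the call was lost without H1 replicate 3 (-0.99) or APLNR+ replicate 3 (-0.95), while the fall to CD43+ cells was -1.34 ± 0.09 (adjusted p 2.14e-07).

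ITGA3, the third laminin-binding chain, took another course and peaked in CD31+CD34+ cells. It had 4.66, 4.31 and 4.61 FPKM in the H1 libraries, 2.66, 2.41 and 3.65 in those of APLNR+, 19.8, 22.6 and 21.1 in those of CD31+CD34+ and 4.65, 5.98 and 6.36 in those of CD43+ cells. The CD31+CD34+ libraries stood apart from the other 9. ITGA3 rose 7.28-fold in mean FPKM at the second step (log2 change 2.52 ± 0.13, adjusted p 9.12e-09) and fell at the third (-1.74 ± 0.13, 3.92e-07). ITGB4, the beta chain that pairs with alpha6 in the hemidesmosomes of epithelia, did not reach the filter and lay between 0.189 and 1.11 FPKM in all libraries. The lower chain of alpha6 and beta1 was thus ITGA6 throughout, at 42.7 ± 2.11 FPKM in H1 and 3.69 ± 0.300 FPKM in CD43+ cells.

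Of the 6 RGD-binding genes 5 were tested and 4 called raised at the first step, where 8.3% of all genes were raised. Of the 4 laminin-binding genes 3 were tested and 2 called lowered, where 7.62% of all genes were lowered. The platelet chains ITGA2B and ITGB3 were classed apart and are not in the RGD-binding count. At this step ITGA2B was called lowered (log2 change -1.26) and ITGB3 was not called (0.29). ITGA5, whose product with beta1 is the classic fibronectin receptor, had 5.75, 6.94 and 6.69 FPKM in the H1 libraries, 67.1, 74.8 and 68.4 in those of APLNR+, 150.2, 183 and 172 in those of CD31+CD34+ and 38.9, 50.98 and 46.6 in those of CD43+ cells. No libraries overlapped between populations. It rose at the first step (log2 change 3.25 ± 0.12, adjusted p 3.4e-10) and at the second (1.25 ± 0.12, 1.11e-06, though 0.98 and under the limit with quantile normalization), and fell at the third (-1.87 ± 0.12, 6.49e-08), to a level still 7.04-fold that of H1. The ratio of ITGA5 to ITGA6 FPKM was 0.151 ± 0.00752 in H1 and 14.8 ± 2.22 in APLNR+ cells. FN1, which encodes fibronectin, was called in the same direction as ITGA5 at each step, with log2 changes of 3.45, 2.06 and -2.53.

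ITGAV encodes the alphaV chain, which joins beta1, beta3, beta5, beta6 or beta8 to bind vitronectin, fibronectin and latent TGF-beta. It had 13.2, 12.6 and 13.6 FPKM in the H1 libraries, 35.4, 39.4 and 40.3 in those of APLNR+, 34.8, 37.6 and 40.1 in those of CD31+CD34+ and 9.02, 9.46 and 10.2 in those of CD43+ cells. APLNR+ and CD31+CD34+ libraries overlapped and lay above H1 and CD43+. Its log2 changes were 1.48 ± 0.09 (adjusted p 3.09e-08) at the first step, -0.03 (0.743) at the second and -1.87 ± 0.09 (5.74e-09) at the third. ITGB5, whose product forms the vitronectin receptor with alphaV, was the most abundant beta gene of APLNR+ cells and had 97.5, 77.6 and 72.1 FPKM in the H1 libraries, 202, 173 and 164 in those of APLNR+, 68.05, 59.8 and 56.7 in those of CD31+CD34+ and 9.81, 11.4 and 6.84 in those of CD43+ cells. The populations did not overlap, and the CD43+ libraries were lowest. ITGB5 rose at the first step (1.12 ± 0.17, adjusted p 0.000115) and fell at the second (-1.53 ± 0.17, 4.74e-06) and the third (-2.62 ± 0.17, 8.72e-08), and its APLNR+ mean was 179.6 FPKM beside 38.4 FPKM for ITGAV. ITGB8, which with alphaV activates latent TGF-beta, was called raised and then lowered around day 2, from 0.944 to 3.12 and 0.577 FPKM (log2 changes 1.08 and -1.39). ITGA8 was called raised at the second step (log2 change 1.08, adjusted p 1.04e-06) at low levels, 1.90 to 2.35 FPKM in CD31+CD34+ cells, and with 0.1 added also at the first (2.50). ITGB6, of epithelial cells, stayed at or under 0.295 FPKM and was not tested.

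Among collagen-binding chains ITGA10 reached the highest level, in CD31+CD34+ cells. ITGA10, a collagen receptor described mainly in cartilage, had 0.0292, 0.0625 and 0.0607 FPKM in the H1 libraries, 0.284, 0.247 and 0.113 in those of APLNR+, 9.68, 11.7 and 11.3 in those of CD31+CD34+ and 2.75, 3.204 and 3.19 in those of CD43+ cells. The CD31+CD34+ libraries were highest and CD43+ next, with both earlier populations under 1 FPKM. It rose at the second step (log2 change 3.29 ± 0.10, adjusted p 8.73e-11) and fell at the third (-1.55 ± 0.10, 8e-08). ITGA1, which binds collagen IV, had 2.19, 3.11 and 3.24 FPKM in the H1 libraries, 5.39, 5.09 and 4.88 in those of APLNR+, 1.29, 1.43 and 1.12 in those of CD31+CD34+ and 4.57, 4.06 and 2.82 in those of CD43+ cells. It was lowest in CD31+CD34+ cells, whose libraries lay under those of all other populations. Its change was -1.43 ± 0.15 at the second step (adjusted p 3.09e-06) and 1.06 ± 0.15 at the third (7.52e-05), and the last call was lost without CD43+ replicate 1 (0.95). In GENCODE 29, ITGA1 shares 475 exon bases with PELO on the same strand, so reads there could be split between these genes. ITGA2, the platelet collagen receptor chain, was called nowhere, with population means from 0.894 to 1.699 FPKM, and ITGA11, of fibroblasts, stayed at or under 0.654 FPKM.

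The related chains alpha4 and alpha9 parted. ITGA9 encodes a receptor for tenascin and other ligands found on endothelium and muscle, and had 1.53, 1.505 and 1.38 FPKM in the H1 libraries, 20.7, 22.4 and 21.1 in those of APLNR+, 62.8, 65.7 and 61.6 in those of CD31+CD34+ and 23.2, 27.3 and 24.8 in those of CD43+ cells. H1 libraries were lowest and CD31+CD34+ libraries highest, with no overlap between populations. It rose at the first step (log2 change 3.18 ± 0.08, adjusted p 2.67e-11) and at the second (1.52 ± 0.08, 1.23e-08) and fell at the third (-1.30 ± 0.08, 8.4e-08). Its antisense gene ITGA9-AS1, which shares 535 exon bases, was at 1.31 FPKM in CD31+CD34+ and 2.81 FPKM in CD43+ cells, and reads of such partners cannot be told apart because no source used here states stranded counting. ITGA4, whose alpha4 chain serves blood progenitors in homing through VCAM1, was called at neither of the earlier steps, within a library range of 0.9001 to 2.597 FPKM and lay at 4.65 to 5.02 FPKM in CD43+ cells. It rose at the third step (log2 change 1.04 ± 0.14, adjusted p 4.88e-05), a call lost without CD31+CD34+ replicate 2 (0.96) or replicate 3 (0.95), and was called between CD43+ and H1 (1.43 ± 0.14, 1.14e-06).

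**Figure D3:**
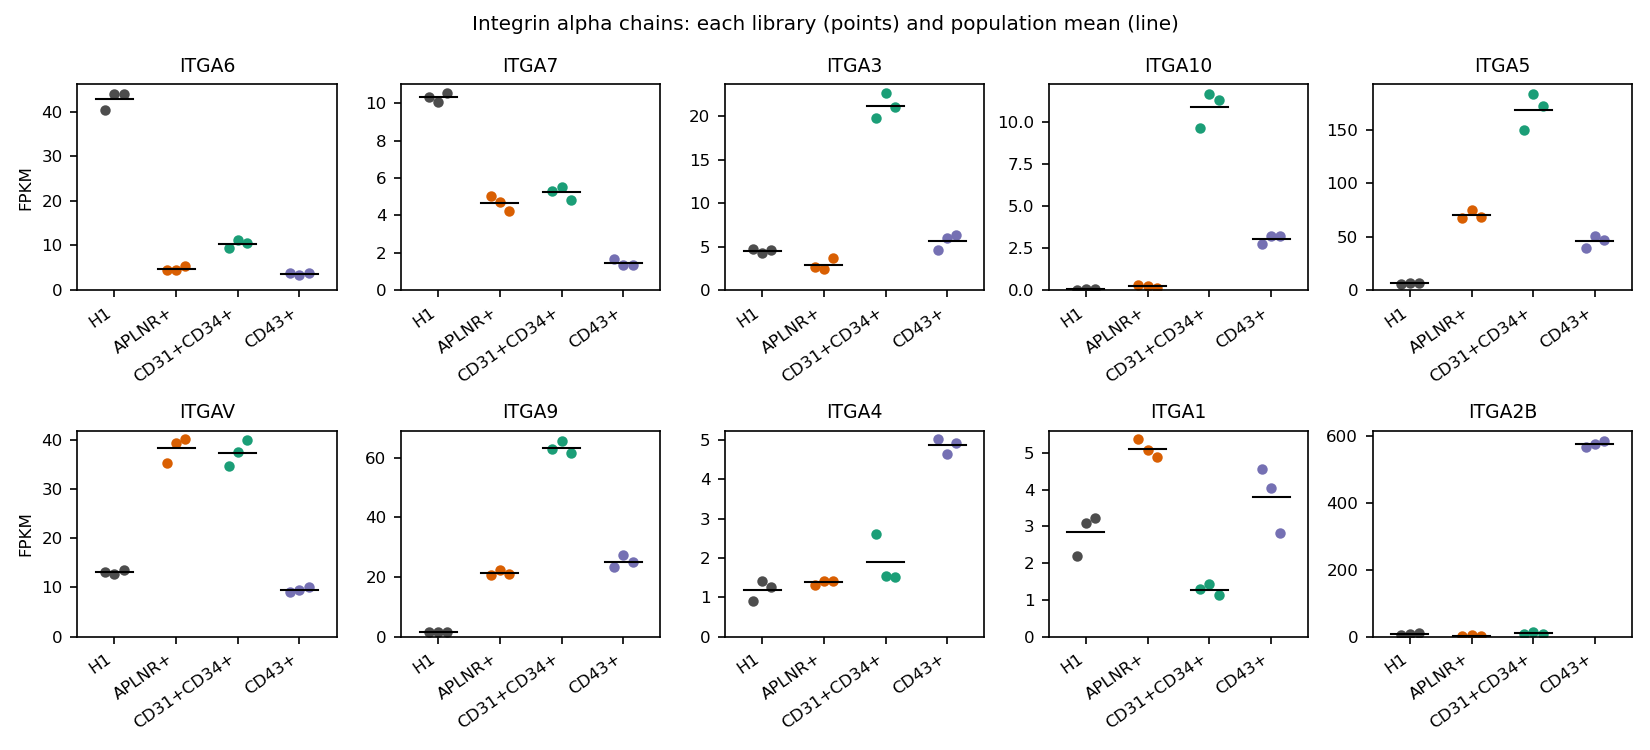
FPKM of 10 integrin alpha genes in each population, with a point for each library and a line at the mean of 3, each panel on its own linear axis from 0. ITGA6 and ITGA7 are highest in H1, ITGA3, ITGA10, ITGA5 and ITGA9 in CD31+CD34+ cells, and ITGA4 and ITGA2B in CD43+ cells, where ITGA2B lies at 567 to 585 FPKM.

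ITGB1 itself, the common partner, was called lowered only at the last step. It had 78.4, 87.2 and 86.5 FPKM in the H1 libraries, 83.1, 103 and 99.7 in those of APLNR+, 69.4, 85.95 and 89.6 in those of CD31+CD34+ and 30.5, 33.9 and 38.1 in those of CD43+ cells. The first 3 populations overlapped, and the CD43+ libraries lay under them. Changes at the first and second steps were 0.18 (adjusted p 0.242) and -0.22 (0.118), and the fall at the third was -1.23 ± 0.12 (4.54e-06). Summed over the 12 alpha genes whose products can pair with beta1, FPKM went from 84.3 ± 3.79 in H1 to 325 ± 22.9 in CD31+CD34+ cells, and its ratio to ITGB1 from 1.003 ± 0.0181 to 4.001 ± 0.324. Set against ITGA5 alone, ITGB1 was the lower chain of the alpha5 beta1 pair in CD31+CD34+ and CD43+ cells, and in H1 and APLNR+ cells ITGA5 was. These sums are a description of transcript levels per length and were not tested.

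Platelet chains set CD43+ cells apart from all others. ITGA2B had 5.97, 6.15 and 9.18 FPKM in the H1 libraries, 2.13, 3.297 and 1.74 in those of APLNR+, 7.19, 12.1 and 8.84 in those of CD31+CD34+ and 567, 574 and 585 in those of CD43+ cells. The CD43+ libraries lay far above the rest, the APLNR+ libraries were lowest, and those of H1 and CD31+CD34+ cells overlapped. CD43+ libraries differed among themselves by an SD of 8.75 FPKM around a mean of 575. ITGA2B fell at the first step (log2 change -1.26 ± 0.20, adjusted p 0.00021), rose at the second (1.61 ± 0.20, 1.6e-05) and rose 61.3-fold in mean FPKM at the third (5.82 ± 0.20, 6.56e-10). Its level in H1, 5.97 to 9.18 FPKM, was thus above that in APLNR+ cells. ITGB3 had 0.0341, 0.104 and 0.0296 FPKM in the H1 libraries, 0.311, 0.3402 and 0.2299 in those of APLNR+, 0.638, 0.7801 and 0.602 in those of CD31+CD34+ and 84.6, 106 and 97.3 in those of CD43+ cells. It stayed under 1 FPKM in the 9 libraries of the first 3 populations, was called at neither of the first steps (log2 changes 0.29 and 0.37, and 1.36 and called at the first with 0.1 added) and rose 143-fold at the third (5.85 ± 0.10, 4.17e-12). At the second step ITGA2B was thus called raised and ITGB3 was not, a difference that was not itself tested. In CD43+ cells ITGA2B exceeded ITGB3 by a factor of 6.04 ± 0.6601 in FPKM, so ITGB3 was the lower chain of the pair. In GENCODE 29 ITGB3 shares 2266 exon bases on its own strand with AC068234.1, which was at or under 0.465 FPKM. ITGB3 can also join alphaV, and in CD43+ cells ITGAV, at 9.55 ± 0.567 FPKM, was the lower chain of that pair.

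Markers of the blood lineages that CD43+ cells can hold were followed beside the platelet chains. The 4 megakaryocyte markers reported here, PF4, PPBP, GP1BA and GP9, were called raised at the third step, and 1 of them also at the second. They are a reduced list, cut after its values were seen, so these counts do not speak for megakaryocyte markers as a whole. Their summed FPKM was 1.39 to 1.59 in the H1 libraries, 0 in those of APLNR+, 1.91 to 2.94 in those of CD31+CD34+ and 71.1 to 98.7 in those of CD43+ cells. PF4, platelet factor 4, accounted for most of it at 59.7 ± 11.96 FPKM, while GP1BA and GP9, subunits of the von Willebrand factor receptor, were listed at 0 in the H1 and APLNR+ libraries and at 8.66 and 10.98 FPKM in CD43+ cells. All 5 erythroid markers were raised at the third step, summing to 659 to 728 FPKM in CD43+ cells. Of these, KLF1 was also called raised at the second step, from 1.56 to 19.3 FPKM. The 4 tested blood progenitor markers were called raised at both steps, while ITGB3 was called only at the third. What part of the ITGA2B and ITGB3 levels lies in megakaryocytic cells was not tested.

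Promoter sequence is shown for ITGA2B, the member with the highest level in CD43+ cells, and for ITGA5, the alpha gene highest in CD31+CD34+ cells, to set the sequences before their starts side by side. These are the 250 bases before the RefSeq start, read 5′ to 3′ on the gene's strand (GRCh38.p14, minus strand for both). Capitals mark matches to any of 4 motifs, searched on both strands. Blood GATA factors bind letters such as AGATAA, in which T was also allowed as the first letter and G as the last. The core sought for ETS factors, which serve endothelium and blood, was AGGAAG, with C also allowed as its first letter. For RUNX factors, needed for the endothelial to blood transition, the letters were TGTGGT. The last motif, that of the widespread SP factors of many housekeeping promoters, was read as GGGCGG. No match in either window overlapped another.
ITGA2B, chr17:44389650-44389899: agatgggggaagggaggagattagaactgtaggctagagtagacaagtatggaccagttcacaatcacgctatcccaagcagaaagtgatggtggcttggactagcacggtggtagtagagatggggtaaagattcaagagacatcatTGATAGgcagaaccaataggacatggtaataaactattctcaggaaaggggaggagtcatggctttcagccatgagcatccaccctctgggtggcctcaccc
ITGA5, chr12:54419267-54419516: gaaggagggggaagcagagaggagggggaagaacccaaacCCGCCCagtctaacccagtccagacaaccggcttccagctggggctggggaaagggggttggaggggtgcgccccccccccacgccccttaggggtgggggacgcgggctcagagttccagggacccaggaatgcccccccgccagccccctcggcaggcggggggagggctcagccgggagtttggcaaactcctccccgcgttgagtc
The ITGA2B window held 1 GATA match and no other, and 48.8% of its bases were G or C. In the ITGA5 window, with 70.0% G or C, 1 SP match was found, on the opposite strand. Of 35116 RefSeq windows of this length, 22.3% held a GATA match, 40.8% an ETS match, 10.98% a RUNX match and 42.6% an SP match. The set matched 33 windows of 26 of its 37 genes, and 8, 15, 1 and 17 of these held the motifs in that order, or 24.2%, 45.5%, 3.03% and 51.5%. A match describes letters and is not a binding site.

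Leukocyte chains other than ITGAE stayed at or under 6.31 FPKM at day 8. Of the 7 genes, ITGAE and ITGB2 were tested, and ITGAD, ITGAL, ITGAM, ITGAX and ITGB7 did not reach 1 FPKM in any library. ITGB2, which encodes CD18, the beta chain shared by the CD11 integrins, was called raised at the second step, from a range of 0.235 to 0.3599 to one of 1.53 to 2.704 FPKM (log2 change 1.28 ± 0.17, adjusted p 2.24e-05), and reached 3.77 to 6.31 FPKM in CD43+ cells. That last change, 0.87 (adjusted p 0.000928), was under the 2-fold limit. It passed with 0.1 FPKM added (1.11), with replicates 2 and 3 alone (1.007) and without CD43+ replicate 3 (1.0046). Between CD43+ and H1, ITGB2 was called raised (2.40 ± 0.17, adjusted p 6.05e-08). ITGAL, the alpha chain of LFA-1, had 0.873, 0.4404 and 0.341 FPKM in CD43+ cells and 0.07401 to 0.122 in CD31+CD34+ cells, without overlap. ITGAM and ITGAX, of myeloid cells, had population means from 0.128 to 0.324 and from 0.0945 to 0.562 FPKM, and the mean of ITGAX was highest in CD31+CD34+ cells. ITGAD was listed at 0 in 11 libraries.

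ITGAE, which with beta7 binds E-cadherin on lymphocytes within epithelia, was the exception by level. Its FPKM were 16.4 to 18.2 in the H1 libraries, 13.98 to 15.2 in those of APLNR+, 6.82 to 8.56 in those of CD31+CD34+ and 13.7 to 14.9 in those of CD43+ cells, with no call (log2 changes -0.23, -0.85 and 0.80). The partner ITGB7 stayed at or under 0.600 FPKM, so the lower chain of the pair had means between 0.193 and 0.363 FPKM. ITGAE shares 427 exon bases with HASPIN, a gene on the opposite strand at up to 11.9 FPKM, and ITGB7 shares 1886 with ZNF740, so both values are uncertain without strand. Myeloid markers summed to 29.8 to 32.8 FPKM in CD43+ cells and 1.39 to 2.38 in CD31+CD34+ cells, carried by SPI1, LYZ and CSF1R, all 3 called raised. MPO and CD14 had means of at most 0.0515 FPKM in all populations. T cell markers summed to 5.92 to 6.03 FPKM in CD43+ cells, carried by CD7 (3.62) and CD3D (2.25). CD2 and CD3E had means of at most 0.0856 FPKM in all populations. The part of either list in the leukocyte chain levels was not tested.

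Matrix chains here are the 15 genes of the collagen-, laminin- and RGD-binding classes and ITGB1. ITGA9, lowered at the step to CD43+ cells (-1.30), and ITGA4, raised (1.04), are in none of the classes set side by side. At that step 8 of the 15 matrix chains were lowered (ITGA3, ITGA5, ITGA6, ITGA7, ITGA10, ITGAV, ITGB1 and ITGB5) and 1 was raised (ITGA1). Another 3 were tested without a call and 3 were not tested, with a median log2 change of -1.31 over the 12 tested. Both platelet chains were raised, with a median of 5.84. Of the 7 leukocyte chains only 2 were tested and neither was called, with log2 changes of 0.80 for ITGAE and 0.87 for ITGB2. ITGB2 passed the limit in some of the alternative settings. Over all genes tested the median was -0.0049, with 5.58% called raised and 8.79% lowered. The classes were not tested against each other. Relative to H1, the matrix chains were split in CD43+ cells, with ITGA5, ITGA8 and ITGA10 raised and ITGA6, ITGA7, ITGB1 and ITGB5 lowered. Of the leukocyte chains ITGB2 was raised relative to H1, and so were both platelet chains.

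Markers of matrix-bound cells went both ways at the last step. The summed FPKM of 5 smooth muscle and fibroblast markers (ACTA2, TAGLN, MYH11, PDGFRB and COL1A2) was 90.05 to 122 in the H1 libraries, 495 to 649.7 in those of APLNR+, 506 to 592 in those of CD31+CD34+ and 114 to 142 in those of CD43+ cells. TAGLN and COL1A2 were called lowered at the last step, from 274 to 15.7 and from 251 to 59.6 FPKM, ACTA2 was called raised, from 13.3 to 34.8 FPKM, and PDGFRB had means of 13.2 and 17.5 FPKM without a call. MYH11, the defining gene of mature smooth muscle, had means of at most 0.167 FPKM. The 5 endothelial markers summed to 427 to 588 FPKM in CD31+CD34+ and 236 to 317 FPKM in CD43+ cells, with CD34, CDH5, KDR and TEK called lowered and PECAM1 at means of 55.2 and 95.9 FPKM without a call. Their part in the matrix chain levels was not tested.

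**Figure D4:**
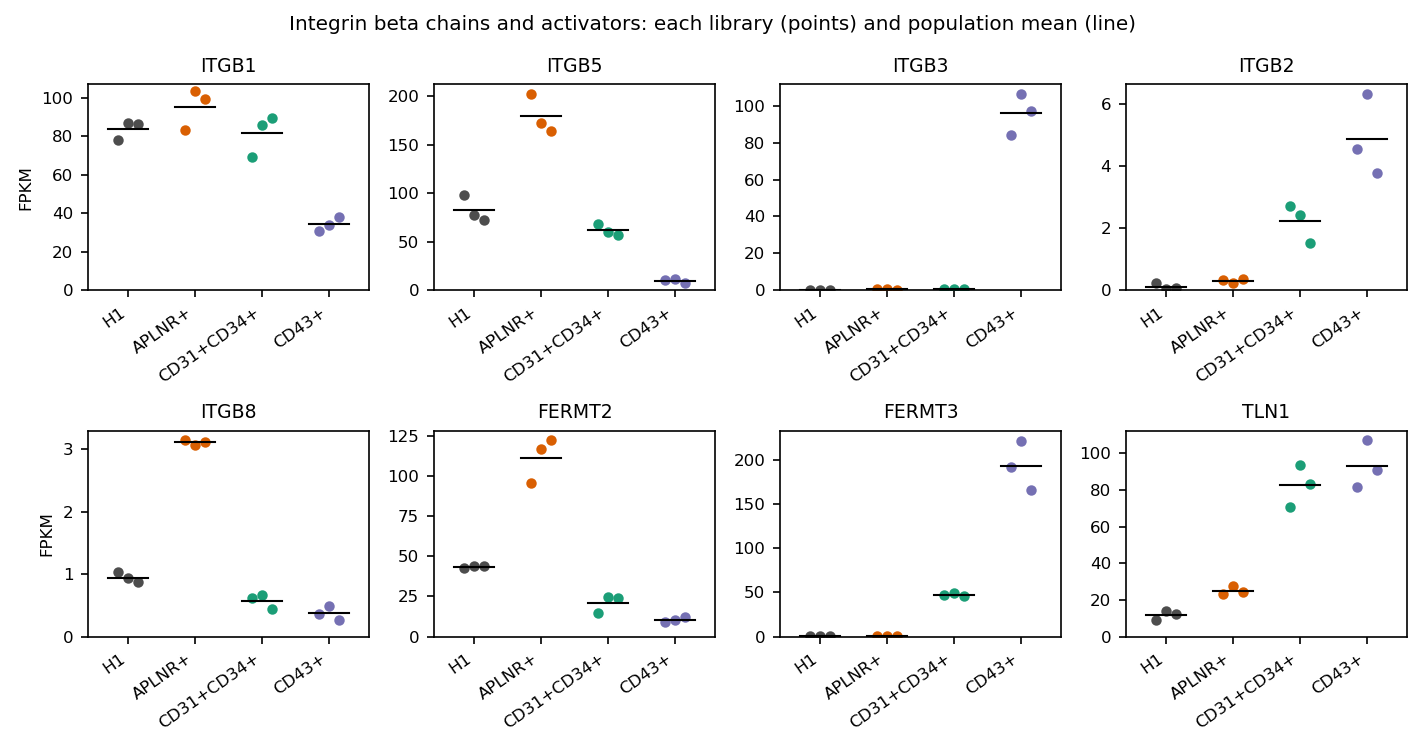
FPKM of 5 integrin beta genes and 3 genes of integrin activation in each population, with a point for each library and a line at the mean of 3, each panel on its own linear axis from 0. ITGB3 and FERMT3 are highest in CD43+ cells, at 84.6 to 106 and 165 to 221 FPKM, and ITGB5, ITGB8 and FERMT2 in APLNR+ cells.

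Genes whose products activate integrins or tie them to actin were followed as partners of the chains. This list and those of ligands and basement membrane partners below were drawn up with earlier results of these data known. In a list of 25, of which 24 were tested, 3, 9 and 5 were called raised and 2, 1 and 6 lowered at the 3 steps, or 20.8%, 41.7% and 45.8% of those tested beside 15.9%, 29.6% and 14.4% of all genes, and the median log2 changes were 0.26, 0.47 and -0.07. The kindlins, which bind beta chain tails and switch integrins on, differed in their course. FERMT1, the epithelial kindlin, fell at the first step, from 4.01 ± 0.548 to 0.802 ± 0.119 FPKM (log2 change -1.47, adjusted p 8.32e-08). FERMT2, the kindlin of most adherent cells, had 42.6, 44.1 and 44.3 FPKM in the H1 libraries, 95.8, 117 and 123 in those of APLNR+, 14.8, 24.5 and 24.2 in those of CD31+CD34+ and 8.81, 10.4 and 12.1 in those of CD43+ cells. It was highest in the APLNR+ libraries, and its changes were 1.33 (adjusted p 4.4e-05), -2.37 (1.7e-07) and -0.93 (0.000794, not called). FERMT3, the kindlin of blood cells and platelets, had 1.05, 0.973 and 0.338 FPKM in the H1 libraries, 0.8098, 0.668 and 0.295 in those of APLNR+, 46.5, 49.4 and 45.8 in those of CD31+CD34+ and 192, 221 and 165 in those of CD43+ cells. It was near or under 1 FPKM until day 2 and rose at the second step (log2 change 4.94 ± 0.17, 3.43e-10) and the third (1.998 ± 0.17, 1.4e-06). The ratio of FERMT2 to FERMT3 FPKM was 0.447 ± 0.113 in CD31+CD34+ and 0.0554 ± 0.0155 in CD43+ cells.

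TLN1, which encodes talin, the link from integrin tails to actin, rose from 11.6 to 24.9 and 82.5 FPKM at the first and second steps (log2 changes 1.06 and 1.68) and was at 93.2 FPKM in CD43+ cells without a further call. RASGRP2, which in platelets turns calcium signals into integrin activation through RAP1, had means of 16.03, 0.3397, 43.9 and 57.6 FPKM from H1 through to CD43+ cells. It fell at the first step and rose at the second (log2 changes -3.67 and 5.06). Of the parvins, adaptors between integrin-linked kinase and actin, PARVA peaked in CD31+CD34+ cells at 15.9 FPKM and fell at the third step (-1.15, adjusted p 0.000128). PARVG, the parvin of blood cells, rose at the third step from 1.79 to 9.36 FPKM (1.89, 3.82e-08). PARVB had the highest level of these genes. It rose at the second step from 10.2 to 58.5 FPKM (2.41, 2.53e-08) and was at 84.2 FPKM in CD43+ cells without a further call (0.52).

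Ligands were counted in a list of 16, of which 11 were tested, with 3, 7 and 2 called raised and 2, 3 and 4 lowered at the 3 steps, or 45.5%, 90.9% and 54.5% of those tested beside 15.9%, 29.6% and 14.4% of all genes. FN1 had mean FPKM of 12.5, 146, 615 and 105 from H1 through to CD43+ cells. CDH1, which encodes E-cadherin, the ligand of alphaE beta7, fell at each step, from 34.4 to 1.68 FPKM. Osteopontin (SPP1), an RGD ligand, was highest in APLNR+ cells at 16.2 ± 2.37 FPKM, and thrombospondin 1 (THBS1), a platelet granule protein, rose at the third step from 5.52 to 48.9 FPKM (log2 change 2.95, adjusted p 1.31e-08). ICAM2, a counter-receptor of beta2 integrins on endothelium and platelets, rose from 0.184 to 89.6 FPKM at the second step (6.26, 2.86e-12), and ICAM4, of red cells, from 3.88 to 48.7 FPKM at the third (3.35, 4.9e-09). The fibrinogen genes FGA, FGB and FGG, a ligand of the platelet integrin, and VCAM1, a ligand of alpha4, did not pass the filter. They do not stand for all ligands of these integrins. VWF, which encodes von Willebrand factor, passed, with means of 0.653, 10.4 and 9.30 FPKM in APLNR+, CD31+CD34+ and CD43+ cells.

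Of the 11 laminin genes 7 were tested, and 2, 0 and 1 were called at the 3 steps, or 28.6%, 0% and 14.3% beside 15.9%, 29.6% and 14.4% of all genes. Between CD43+ cells and H1, 4 of the 7 were called (57.1%, beside 37.1% of all genes). The laminin and integrin genes were not tested against each other. LAMA1, the alpha chain of the laminin of early embryos and of Matrigel, had 16.6, 17.3 and 17.01 FPKM in the H1 libraries, 26.5, 28.7 and 28.1 in those of APLNR+, 15.6, 17.8 and 17.8 in those of CD31+CD34+ and 3.22, 3.49 and 3.43 in those of CD43+ cells. The CD43+ libraries lay under all others, and those of H1 overlapped with CD31+CD34+ cells. Its changes at the first and second steps were under the 2-fold limit (0.68 and -0.67) and it fell at the third (log2 change -2.04 ± 0.08, adjusted p 1.68e-09). LAMA5, the most widespread alpha chain in adult basement membranes, was called nowhere and had means of 10.3, 17.3, 14.9 and 16.6 FPKM. The ratio of LAMA5 to LAMA1 FPKM was 0.607 ± 0.0874 in H1, 0.881 ± 0.137 in CD31+CD34+ and 4.93 ± 1.09 in CD43+ cells. LAMA5 shares 244 exon bases with ADRM1 on the opposite strand. LAMA2, of muscle, was called nowhere at means from 0.373 to 1.94 FPKM, and LAMA3, of epithelia, was not tested. LAMA4, the alpha chain typical of endothelium, did not pass the filter, at 0.661 to 1.56 FPKM in H1 and 0.365 to 0.955 FPKM in CD31+CD34+ cells.

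Of the beta chains, LAMB1 had 8.498, 10.2 and 9.91 FPKM in the H1 libraries, 30.8, 27.9 and 27.3 in those of APLNR+, 42.1, 46.6 and 45.9 in those of CD31+CD34+ and 21.8, 26.5 and 28.4 in those of CD43+ cells. The populations did not overlap except that APLNR+ and CD43+ libraries shared a range. It rose at the first step (log2 change 1.50 ± 0.11, adjusted p 2.23e-07), and its later changes, 0.63 and -0.79, were under the limit. LAMB2, the beta chain of mature basement membranes, had 35.5, 31.99 and 32.03 FPKM in the H1 libraries, 43.4, 58.8 and 47.7 in those of APLNR+, 74.5, 121 and 103 in those of CD31+CD34+ and 82.8, 98.6 and 101 in those of CD43+ cells. H1 libraries were lowest, and those of CD31+CD34+ and CD43+ cells overlapped. It was called between CD43+ and H1 (1.47 ± 0.17, adjusted p 4.65e-06) and just missed the limit at the second step (0.96 ± 0.17), passing it without APLNR+ replicate 2 (1.08) or CD31+CD34+ replicate 1 (1.16). LAMB3 and LAMB4 stayed at or under 0.465 FPKM.

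LAMC1, the gamma chain of nearly all laminins, was called nowhere, with means of 25.1 ± 3.23, 43.4 ± 6.68, 73.6 ± 8.61 and 40.1 ± 5.73 FPKM and log2 changes of 0.77, 0.75 and -0.86, at adjusted p values of 0.000839, 0.00061 and 0.000394. LAMC3, a gamma chain of few tissues, had 3.296, 3.58 and 2.89 FPKM in the H1 libraries, 10.6, 10.3 and 8.33 in those of APLNR+, 13.004, 15.8 and 12.7 in those of CD31+CD34+ and 8.87, 9.48 and 10.1 in those of CD43+ cells. H1 libraries were lowest, and the APLNR+ and CD43+ libraries overlapped. It rose at the first step (log2 change 1.33 ± 0.12, adjusted p 1.26e-06) and was called in no other step. Summed by chain type, laminin alpha FPKM averaged 29.5 ± 1.38, 47.5 ± 2.42, 33.4 ± 0.603 and 21.2 ± 2.76 from H1 to CD43+ cells, and the ratio of this sum to LAMC1 was 1.196 ± 0.223, 1.12 ± 0.219, 0.459 ± 0.0587 and 0.539 ± 0.133. In CD31+CD34+ cells beta and gamma transcripts thus stood at 145 and 87.4 FPKM against 33.4 of alpha.

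**Figure D5:**
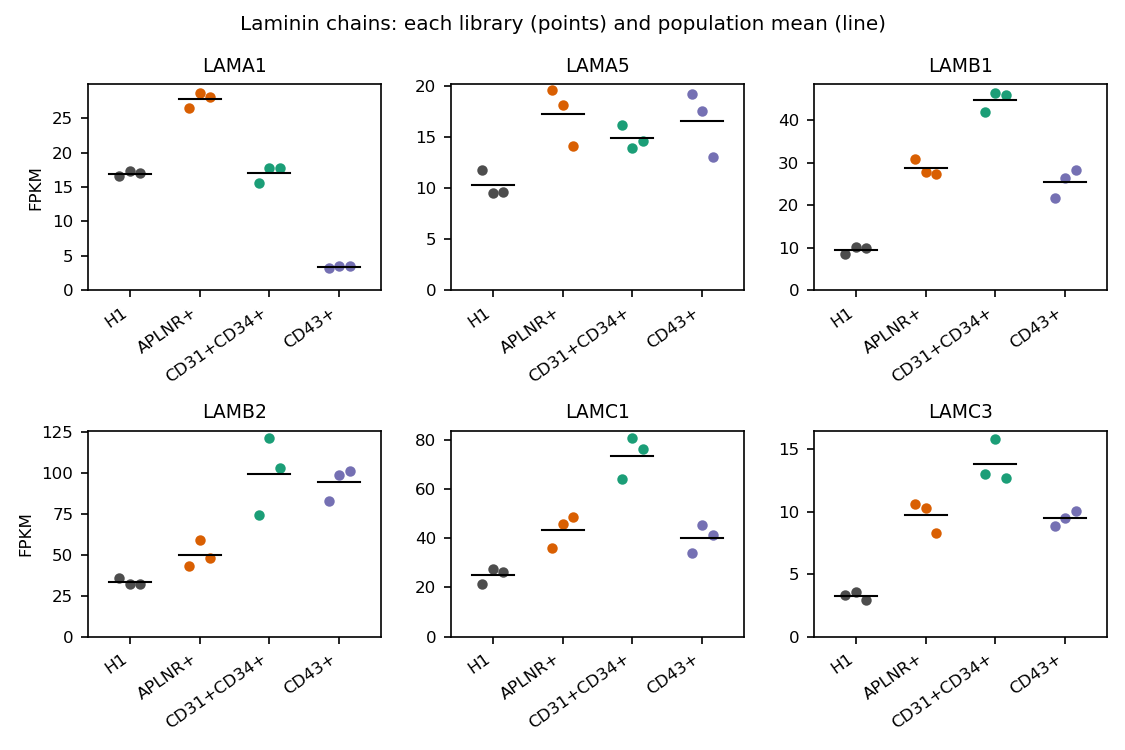
FPKM of 6 laminin genes in each population, with a point for each library and a line at the mean of 3, each panel on its own linear axis from 0. LAMA1 is lowest in CD43+ cells at 3.22 to 3.49 FPKM, LAMA5 shows no call, and LAMB1, LAMC1 and LAMC3 have their highest means in CD31+CD34+ cells.

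In a list of 10 basement membrane partners of laminin and other laminin receptors, all tested, 0, 8 and 0 were called raised and 1, 0 and 4 lowered at the 3 steps, or 10%, 80% and 40% beside 15.9%, 29.6% and 14.4% of all genes, with median log2 changes of 0.42, 1.61 and -0.77. The collagen IV genes COL4A1 and COL4A2 went from 25.96 and 29.01 to 134 and 226 FPKM at the second step (log2 changes 2.33 and 2.92) and fell to 32.5 and 72.1 FPKM at the third step (-2.01 and -1.63). Perlecan (HSPG2) also rose and then fell, with log2 changes of 1.995 and -1.59. The nidogens NID1 and NID2, which bridge laminin and collagen IV, rose at the second step (1.86 and 2.72) and were not called at the third (-0.11 and -0.63), nor was COL18A1, which rose by 1.36 at the second.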

How the data were processed

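Per the labels, Trizol was used to harvest RNA and an Illumina TruSeq kit to prepare libraries. The authors deposited a single FPKM table, whose 12 columns were matched to samples by title. The submitters' processing notes name BWA, Bowtie, RSEM and hg19 without roles or versions, and the annotation is not given in the sources used here. Of 58366 lines, 1 held text and was left out, and 345 symbols had more than 1 line, of which the highest on average was used. Library totals are absent, so precision rests on 3 libraries per population. FPKM are not counts, so no count model was run.

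Values were transformed as log2(FPKM + 1), and genes with at least 1 FPKM in at least 3 libraries entered (14840). The 4 populations were fitted together in limma 3.58.1, run under R 4.3.3 (lmFit, contrasts.fit, eBayes with trend, no covariate), with Benjamini-Hochberg adjustment over all genes of each of 4 comparisons. A call needs an adjusted p under 0.05 and a 2-fold change. Tested on simulated data of 14840 genes for CD43+ against H1, it called 197 of 200 genes changed by 2 on the log2 scale and 3 unchanged genes. Members called somewhere with a population mean of at least 5 FPKM are given by library (FERMT2 and FERMT3 too, chosen after their values were seen), others by ranges. A megakaryocyte marker of the original list is not reported here and was left out of its counts and sums. FERMT1, PARVB and single markers were likewise named after their values were seen. Partner genes were named, up to 6 a list, by number of calls and mean FPKM. Outside this rule FGA, FGB, FGG and VCAM1 were also named, and VWF was named after its values were seen. Members and lists were chosen with earlier results of these data known. Same-numbered libraries deviated together in CD43+ against CD31+CD34+ cells (correlations 0.39, 0.21 and 0.19) and against H1 (0.39, 0.25 and 0.17), but not in every pair of the other comparisons. Alternatives were another pseudocount, filter and scaling, a replicate block, fits to the compared populations or to replicates 2 and 3 alone, no minimum change, and leaving out each library. Exon overlaps are from GENCODE release 29 and promoters from RefSeq. Python 3.11.15, pandas 2.3.3 and matplotlib 3.10.9 were used.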

Additional observations from a re-analysis of the deposited data

How the results depend on the processing

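The number of integrin and laminin genes called (10, 10, 14 and 16 in CD43+ against H1) kept within 1.5 times under both scalings, a pseudocount of 0.1, no filter, the compared populations alone and replicates 2 and 3 alone. The count from H1 to APLNR+ cells with a pseudocount of 0.1 stood at that limit. It was 15 in place of 10, with 12 raised in place of 7. Leaving out a library gave 9 to 10, 10 to 12, 12 to 14 and 15 to 16. The replicate block gave 10, 10, 14 and 16 and changed no call of a member. A mean of at least 5 FPKM left 17 members tested and 5 calls from APLNR+ to CD31+CD34+ cells. Without a minimum change 20, 19, 22 and 23 members were called, as were 8594, 10948, 7961 and 11076 of all genes, against 2363, 4400, 2133 and 5501. All-gene counts also moved beyond 1.5 times with a pseudocount of 0.1 (3632 from H1 to APLNR+ and 3605 from CD31+CD34+ to CD43+ cells) and with a mean of at least 5 FPKM (1193, 1313 and 3309 for all comparisons but the second). Quantile normalization moved the median of all genes for CD43+ against H1 from -0.10 to 0.016.

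Of 1335 values of single members, 11 changed sign, none of them a called one. Quantile normalization turned ITGA2 from APLNR+ to CD31+CD34+ cells (-0.03, then 0.0903) and LAMB2 from CD31+CD34+ to CD43+ cells (-0.06, then 0.0167). Over the fits without a library ITGA2 ranged from -0.0433 to 0.215 at the first step and from -0.156 to 0.0601 at the second, ITGAV from -0.0881 to 0.0182 at the second and LAMB2 from -0.249 to 0.0975 at the last. 8 values lost a call and 19 gained one, the latter mostly low genes with a pseudocount of 0.1. Upper-quartile scaling ended the first call of ITGA7 (-0.91). The causes were not tested. Depth limits the genes under 1 FPKM, most of all in replicate 1.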
